A study of Homo sapiens with 12 samples.

Results

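SV-HUC-1 cells, an immortalised line of human urothelium, had 3 days with DCBQ or with blank solution. DCBQ is a dichlorinated benzoquinone that forms as a disinfection byproduct. The extended major histocompatibility complex (MHC) was examined in these cells. Its members were all CpGs at chr6:28510000-33480000 (hg38), 5002 of the 3689712 CpGs with a 5-methylcytosine (5mC) level and 3705 of the 3534314 CpGs with a 5-hydroxymethylcytosine (5hmC) level. Reduced representation bisulfite sequencing (RRBS) and its oxidative form were each run on 3 DCBQ and 3 control libraries, 12 in all, and both groups are the same unedited cell line without any further agent named in the labels. The deposited tables hold 3 DCBQ and 3 control columns per mark, with levels as fractions, given here in percent, and differences are DCBQ minus control in percentage points. The labels do not say that the libraries came from separate cultures, so tests measure only the spread between columns, which may be technical. They give no DCBQ dose, and the read depth behind a level is unknown, so no counting interval can be given.

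The MHC is the densest cluster of immune genes in the human genome. Its class I part encodes the classical chains, HLA-B and HLA-C among them, that show peptides from inside the cell to CD8+ T cells, and its class II part encodes the chains that show taken-up proteins to CD4+ T cells, mainly on dedicated antigen-presenting cells, together with the TAP transporter and immunoproteasome subunits that feed class I molecules. The class III part between them holds complement, tumour necrosis factor and heat shock genes, and the flanking extended parts hold olfactory receptors, zinc finger genes, the chaperone tapasin and chromatin regulators. Methylation of CpG-rich promoters is known to accompany silencing, and 5hmC is the oxidation product that TET enzymes make from 5mC.

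The MHC was thinly read. Of 2631 CpGs in the RefSeq promoter sequences of its genes (GRCh38.p14, 250 bases before and 50 after a start), 16.23% had a 5mC level and 8.86% a 5hmC level, against 56.78% and 55.86% in promoters elsewhere. The share with a 5mC level was 28.89% in the extended class I part, 20.86% in class I, 10.55% in class III, 8.36% in class II and 18.6% in the extended class II part. Of the 5mC CpGs of the MHC, 74.07% were also in the 5hmC table, against 95.66% on the rest of chromosome 6, and in class III the share was 55.14%. The authors' tables also list 23518 CpGs with a 5mC level on 7 alternate MHC sequences of the assembly, where the mean was 52.4% ± 0.146 in DCBQ cells and 52.7% ± 0.167 in control cells (SD, n = 3 columns each). Whether reads of the same alleles were divided between these copies was not tested. Across MHC CpGs, 5mC columns correlated with each other at Pearson r of 0.947 to 0.954, and 5hmC columns only at 0.142 to 0.246. At 2.51% to 4.53% of the CpGs in both tables, by column, the summed levels of the marks exceeded 1.

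**Figure D1:**
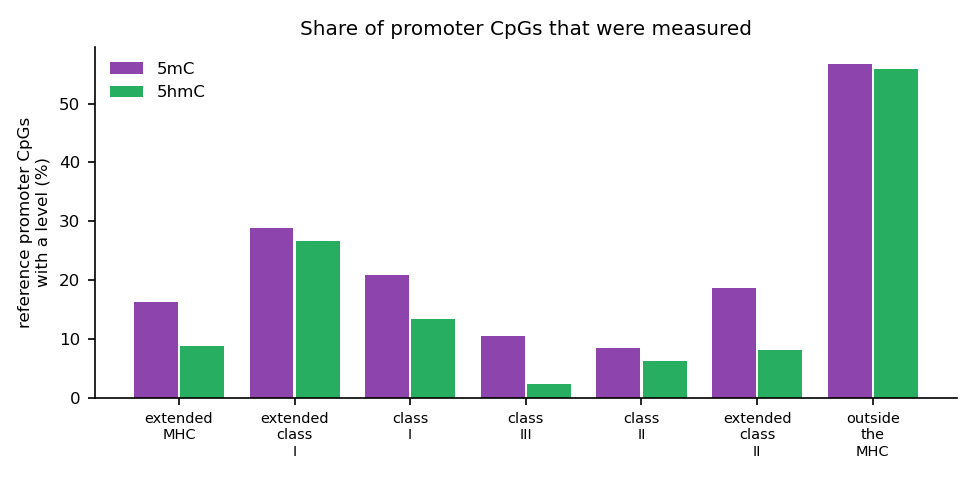
Percent of CpGs in RefSeq promoter sequences that had a 5mC level (purple bars) or a 5hmC level (green bars), for the extended MHC, its 5 parts and all promoters outside it. Every part of the MHC lies far below the 56.78% for 5mC outside it, with class II lowest at 8.36%.

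Promoter sequences show which positions the values rest on. RefSeq held a promoter for 154 of the 172 protein-coding genes whose window at the start or gene end lay inside the region. Of these promoters, 5 are printed from the 250 bases before the start, 5′ to 3′ along the gene, with CpGs that had a 5mC level in capitals. SCAND3 at chr6:28616203-28616452 (minus strand) and ZFP57 at chr6:29681153-29681402 (minus strand) carry methylated CpGs, TAP2 at chr6:32838740-32838989 (minus strand) and RING1 at chr6:33208250-33208499 (plus strand) carry CpGs that are nearly free of 5mC, and HLA-B at chr6:31357180-31357429 (minus strand) has 17 CpGs, of which 0 were read.
SCAND3: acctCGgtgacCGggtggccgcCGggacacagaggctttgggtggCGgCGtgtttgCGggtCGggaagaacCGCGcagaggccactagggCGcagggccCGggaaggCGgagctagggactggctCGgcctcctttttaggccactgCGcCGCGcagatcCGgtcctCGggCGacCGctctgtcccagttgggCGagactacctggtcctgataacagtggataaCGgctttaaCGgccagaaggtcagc
ZFP57: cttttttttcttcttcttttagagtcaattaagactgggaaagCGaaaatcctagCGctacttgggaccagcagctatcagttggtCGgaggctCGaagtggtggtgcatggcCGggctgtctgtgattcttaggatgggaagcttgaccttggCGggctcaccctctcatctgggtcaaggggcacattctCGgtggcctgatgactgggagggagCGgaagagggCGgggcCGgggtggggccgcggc
TAP2: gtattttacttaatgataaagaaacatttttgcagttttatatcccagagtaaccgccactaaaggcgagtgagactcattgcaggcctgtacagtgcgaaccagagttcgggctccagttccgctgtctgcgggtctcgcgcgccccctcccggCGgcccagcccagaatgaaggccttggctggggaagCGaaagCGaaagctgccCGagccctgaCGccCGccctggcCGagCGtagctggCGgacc
RING1: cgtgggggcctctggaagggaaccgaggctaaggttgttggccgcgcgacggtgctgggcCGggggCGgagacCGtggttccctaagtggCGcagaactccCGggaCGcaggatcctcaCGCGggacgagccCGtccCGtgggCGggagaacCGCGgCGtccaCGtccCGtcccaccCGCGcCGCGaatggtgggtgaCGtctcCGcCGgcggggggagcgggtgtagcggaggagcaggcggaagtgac
HLA-B: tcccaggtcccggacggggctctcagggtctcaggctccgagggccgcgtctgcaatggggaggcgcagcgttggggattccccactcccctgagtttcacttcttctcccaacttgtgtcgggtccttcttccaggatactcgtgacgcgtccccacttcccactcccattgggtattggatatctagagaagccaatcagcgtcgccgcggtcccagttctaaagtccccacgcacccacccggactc
Over the 23 capital CpGs of SCAND3, mean 5mC was 76.6% in DCBQ cells and 78.1% in control cells, and over the 10 of ZFP57 it was 87.2% and 87.0%, in the same order. Over the 9 of TAP2 it was 0.49% in both groups, and over the 23 of RING1 it was 0.63% in DCBQ cells and 0.34% in control cells. The letters ATTGG, the reverse of the CCAAT box that forms the Y element of MHC promoters, occurred on either strand in 18 of the 23 promoters of MHC antigen-presentation genes (78.3%), against 34.5% of 15843 promoters. The letters GAAANNGAAA, a core of interferon response elements, occurred on either strand in 4 of these 23 (17.4%), TAP2 among them, against 2.7% of all. Such a match is a description of the sequence and no evidence of binding.

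Over all its CpGs the MHC differed between the groups by less than the spread of the columns. Mean 5mC was 51.79%, 51.72% and 51.35% in the DCBQ columns and 52.46%, 51.56% and 51.91% in the control columns. The groups overlapped, and the difference was -0.354 points (SE 0.297, two-sided exact permutation p = 0.4, where 3 against 3 cannot go below 0.1). It was -0.112 points without control replicate 1, -0.564 without control replicate 2 and -0.578 with each 1 kb tile counted once. Mean 5hmC was 4.04%, 4.34% and 4.85% in the DCBQ columns and 4.37%, 4.38% and 4.12% in the control columns, again overlapping (0.12 points, SE 0.252, exact permutation p = 0.9, and -0.10 without DCBQ replicate 3). On the rest of chromosome 6, 5mC differed by -0.327 points (SE 0.102, exact permutation p = 0.1) with every DCBQ column below every control column, and the MHC difference departed from it by -0.027 points (SE 0.226, exact permutation p = 0.9, and 0.13 without control replicate 1). The same difference of differences for 5hmC was 0.043 points (SE 0.179, exact permutation p = 0.8, and -0.082 without DCBQ replicate 3). The 5hmC level of the MHC lay above the rest of chromosome 6 by 1.05 points in DCBQ cells and 1.01 points in control cells, in 6 of 6 columns. In DCBQ cells 13.25% of MHC CpGs averaged above 10% 5hmC, against 7.39% on the rest of chromosome 6. The MHC also had more CpGs at 0 in all 3 DCBQ columns, 30.93% against 25.37%. Whether its thin reading raised the mean of a mark that cannot fall below 0 was not tested.

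The 5 parts had different levels but no part differed between groups after adjustment. Mean 5mC was highest in class II, at 62.0% ± 0.562 in DCBQ cells and 62.5% ± 0.759 in control cells, and lowest in the extended class II part, at 29.6% ± 0.132 and 29.6% ± 0.562 in the same order (SD, n = 3 columns each). It was 49.0% in DCBQ cells and 49.2% in control cells in class I, and 56.8% and 57.1% in class III. The extended class I part, with its olfactory receptor and zinc finger genes, was the only part whose columns did not overlap for 5mC. Its 1059 CpGs averaged 58.87%, 59.06% and 58.87% in the DCBQ columns and 60.23%, 59.26% and 59.90% in the control columns (-0.861 points, SE 0.291, exact permutation p = 0.1, adjusted p = 0.8 over the 5 parts and both marks). Most of these CpGs, 847, lay outside protein-coding genes, where the difference was -0.889 points (SE 0.282, exact permutation p = 0.1). For 5hmC the columns of the groups overlapped in all 5 parts, and class II and extended class II were lower in DCBQ cells by 0.326 and 0.466 points (SE 0.253 and 0.239). With each 1 kb tile counted once, these 5hmC differences were 0.398 points in class II and -1.637 points in extended class II.

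**Figure D2:**
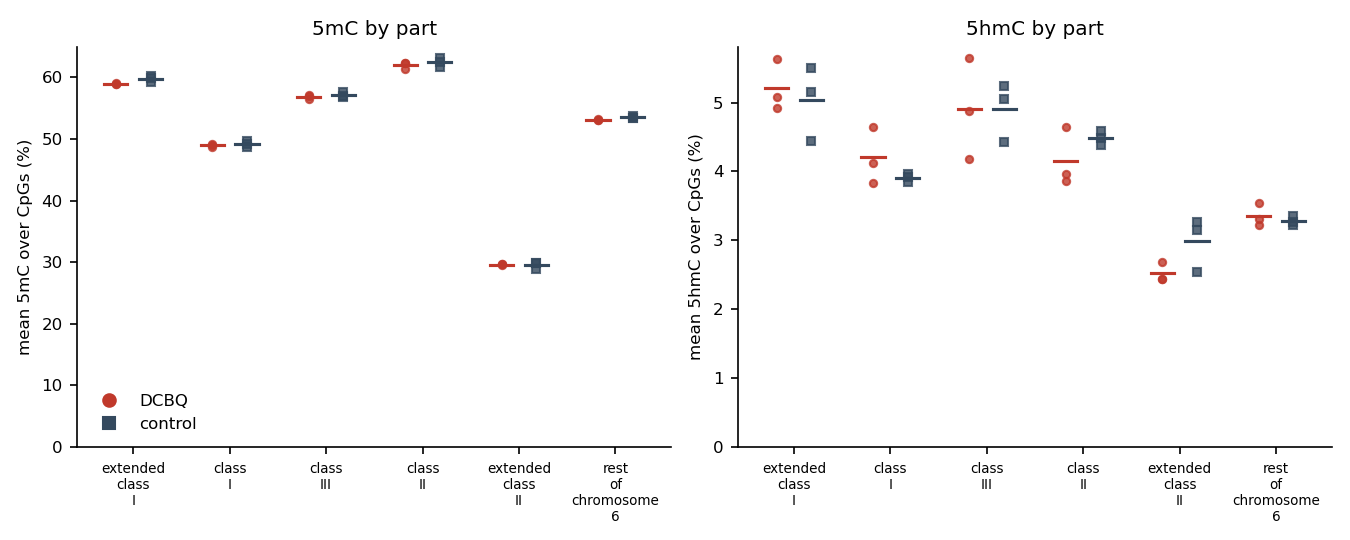
Mean 5mC (left) and 5hmC (right) in percent for each part of the MHC and the rest of chromosome 6. Points are the 3 columns of DCBQ cells (red circles) and control cells (dark squares) and bars their means, which lie close together for 5mC, from 29.6% in the extended class II part to 62.0% and 62.5% in class II.

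Along the region the levels moved with position far more than with treatment. In bins of 100 kb the number of CpGs with a 5mC level ranged from 6 to 231. The bin at chr6:28700001-28800000 (164 CpGs) averaged 69.9% in DCBQ cells and 72.2% in control cells, and the one at chr6:31700001-31800000 (63 CpGs) averaged 42.4% and 44.0% in the same order, and these were the only bins whose 5mC columns did not overlap. For 5hmC the columns were apart at chr6:31200001-31300000 (55 CpGs), with 7.76% in DCBQ cells and 5.91% in control cells, and in the last bin, from chr6:33400001 to the upper bound (167 CpGs), with 1.51% and 2.07%. In the other bins of each mark the columns were not apart. Columns without any difference would lie apart, 3 against 3, in a share of 0.1 of bins. The bins named here are a smaller share of all bins for either mark. No test was made over the bins. At the bounds of the region, the 100 kb just inside the lower one averaged 58.0% in DCBQ cells and 58.5% in control cells, and the 100 kb just outside it 64.6% and 65.1%. At the upper bound the values were 25.2% and 24.8% just inside and 75.3% and 75.7% just outside.

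**Figure D3:**
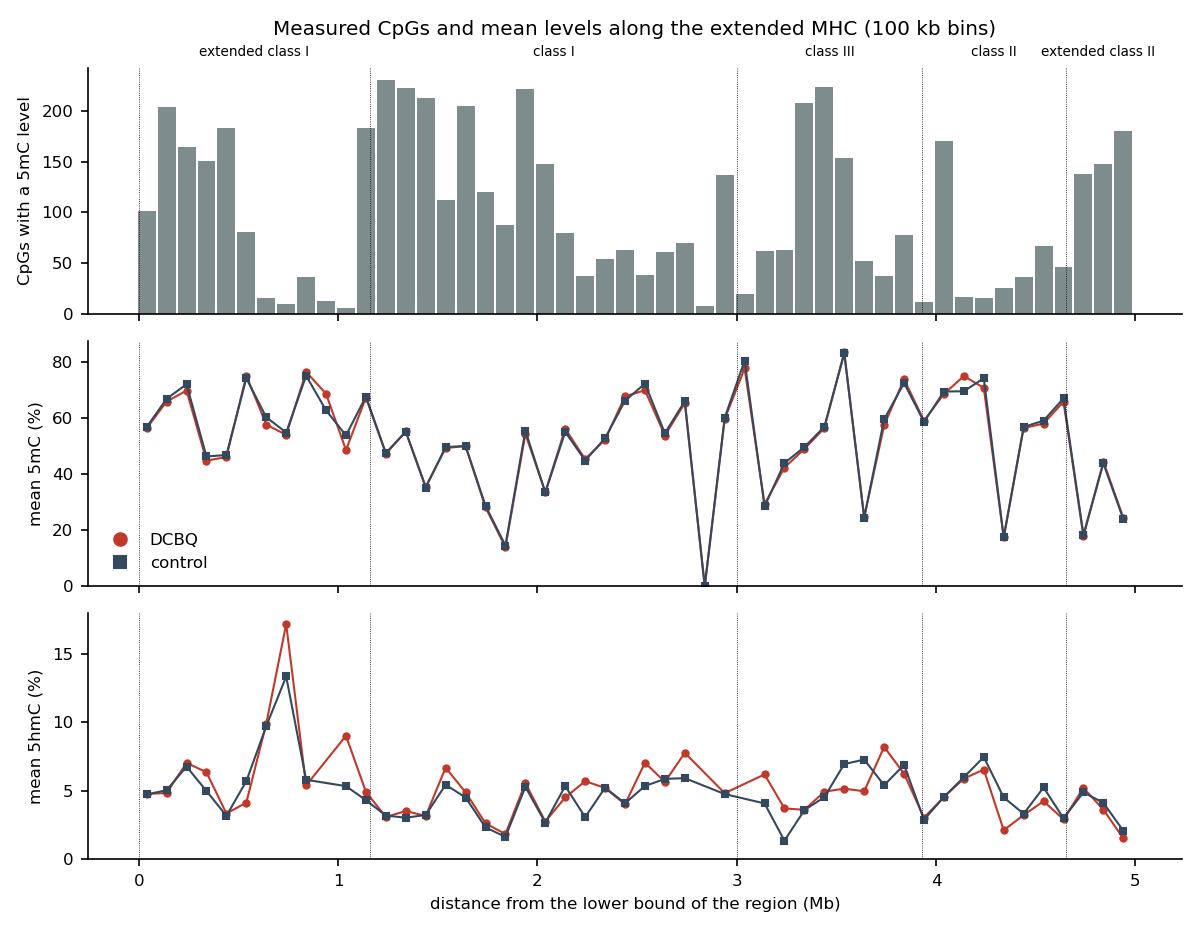
Number of CpGs with a 5mC level (top), mean 5mC in percent (middle) and mean 5hmC in percent (bottom, bins with 5 or more CpGs) in 100 kb bins, by distance in Mb from the lower bound. Red circles are DCBQ cells, dark squares control cells and dotted lines the bounds of the parts; counts range from 6 to 231 and the lines of the groups run close together for 5mC.

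Promoter windows (1500 bases before to 500 after the outermost start) averaged 17.7% 5mC in both groups in the MHC, against 10.2% in DCBQ cells and 10.3% in control cells on the rest of chromosome 6. MHC gene bodies averaged 60.5% in DCBQ cells and 60.8% in control cells. Of 172 genes, 66 had a window with at least 5 CpGs for 5mC, 15 had 1 to 4 and 91 had 0, while outside the MHC 77.2% of genes passed. Of the 66 windows, 57 sat at a RefSeq start and 9 at the gene end with more CpGs where no start was in the table used, and 7 pairs of genes, such as TAP1 and PSMB9, shared all their CpGs. Below 5% 5mC were 43 of the 66 (65.2%), against 50.6% of windows outside, and above 60% were 10 (15.2%), against 14.4% (bounds of 5% and 60% were chosen after the data were seen). Of the 41 windows whose 250 bases before the start had an observed to expected CpG ratio of at least 0.6, 30 were below 5% 5mC, against 6 of the 16 with a lower ratio.

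HLA-B, HLA-C and HLA-E were nearly free of 5mC at the sites that were read. HLA-E, whose product binds leader peptides and is seen by NK cells, had 0.49%, 0.82% and 0.77% in DCBQ cells and 0.14%, 0.69% and 0.73% in control cells over 35 CpGs of its window, which was placed at the CpG-denser gene end. HLA-B and HLA-C, classical chains, had no CpG in their promoter windows and 4 in their bodies, where HLA-B was at 0% in both groups and HLA-C at 0.92% in DCBQ cells and 0% in control cells.

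HLA-F, a nonclassical chain, was intermediate at its promoter, with 33.97%, 40.77% and 39.85% in DCBQ cells and 41.87%, 40.47% and 38.44% in control cells over 13 CpGs. Its body was lower, at 9.66% in DCBQ cells and 8.37% in control cells over 15 CpGs. HLA-G, the nonclassical chain best known from trophoblast, was highly methylated over 65 CpGs of its body, at 92.2% ± 0.90 in DCBQ cells and 91.5% ± 0.14 in control cells. The stress ligands MICA and MICB, both recognised by the NKG2D receptor of NK cells, differed in level. The MICA promoter averaged 1.61% in DCBQ cells and 0.28% in control cells (13 CpGs), and the MICB promoter 64.5% and 59.7% in the same order (6 CpGs).

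**Figure D4:**
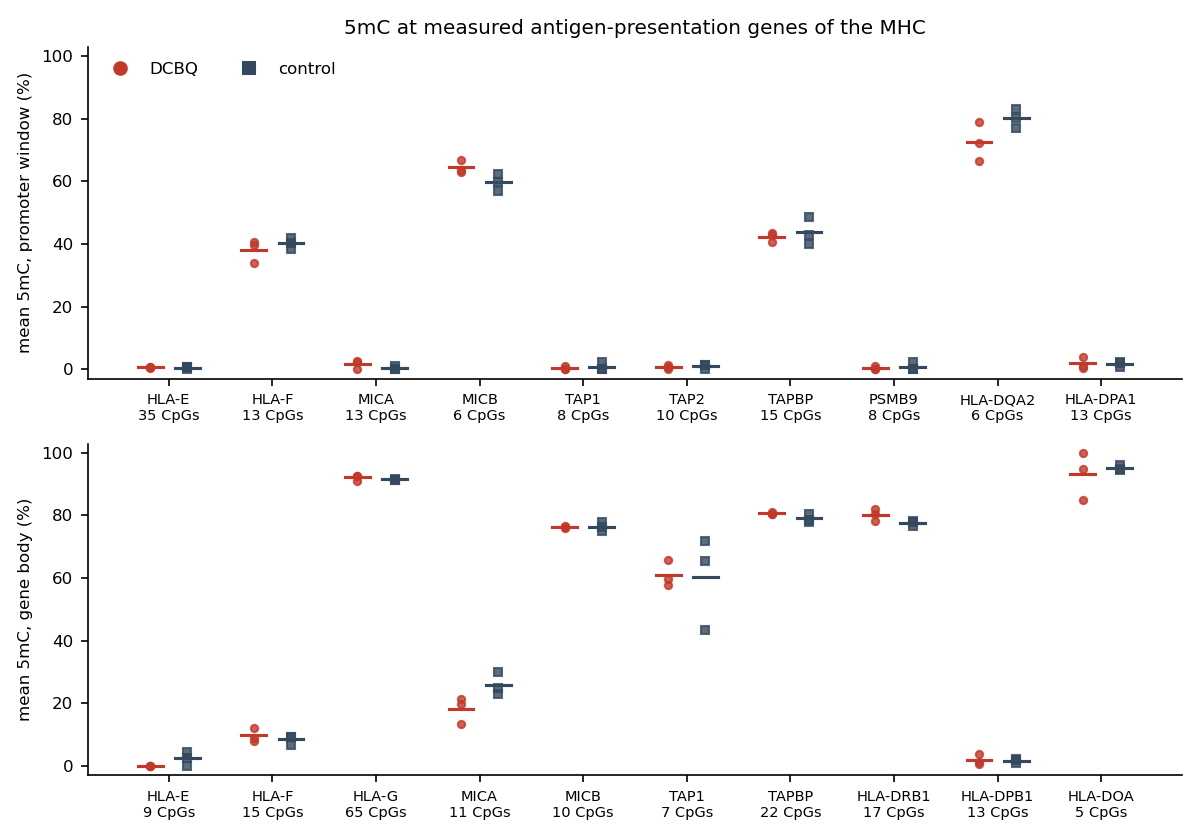
Mean 5mC in percent at the promoter window (top) and gene body (bottom) of antigen-presentation genes with at least 5 CpGs, whose number stands under each name. Red circles are the 3 DCBQ columns, dark squares the 3 control columns and bars their means; HLA-E and TAP1 windows lie near 0 while the HLA-G body lies above 90%.

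The peptide supply genes were mostly unmethylated at their promoters. TAP1, a chain of the transporter that loads peptides into the endoplasmic reticulum, and PSMB9, an immunoproteasome subunit, share 8 CpGs between them, with 0.96%, 0% and 0% in DCBQ cells and 2.28%, 0% and 0% in control cells. TAP2, the other transporter chain, averaged 0.65% in DCBQ cells and 0.86% in control cells over 10 CpGs. TAPBP encodes tapasin and lies in the extended class II part. Its window averaged 42.4% ± 1.63 in DCBQ cells and 43.9% ± 4.44 in control cells over 15 CpGs. This window reaches into the body of the neighbouring ZBTB22, where 8 CpGs averaged 79.5% in DCBQ cells and 81.9% in control cells. In each column these 8 CpGs account for nearly all of the window mean. The other CpGs of the TAPBP window were thus nearly free of 5mC. The 7 CpGs of the TAPBP window with a 5hmC level averaged 12.6% ± 2.04 in DCBQ cells and 13.95% ± 10.55 in control cells, so the control columns spread widely. Their mean over all columns, 13.25%, was also the highest 5hmC body level among the listed chromatin regulators, which include ZBTB22. These CpGs thus appear to lie in the ZBTB22 body and need not describe the TAPBP start.

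Of the 9 class II chain genes, 2 had a promoter window with at least 5 CpGs. HLA-DQA2 averaged 72.6% ± 6.13 in DCBQ cells and 80.2% ± 3.13 in control cells over 6 CpGs. The window at the outermost start of HLA-DPA1 averaged 1.85% ± 1.78 in DCBQ cells and 1.59% ± 0.73 in control cells, and its 13 CpGs lie inside HLA-DPB1 and are the same that were read in that gene's body. The HLA-DRB1 body averaged 80.2% in DCBQ cells and 77.6% in control cells over 17 CpGs. HLA-DOA, which encodes a chain of the HLA-DO modulator of peptide exchange, averaged 93.3% and 95.2% over 5 CpGs of its body. HLA-DRA, at 3 CpGs of the window at its gene end, stood at 60.5% in DCBQ cells and 57.9% in control cells. HLA and MIC genes vary between people. Without the CpGs in or within 2 kb of HLA, MIC and C4 genes, the 5mC difference was -0.783 points in class II, against -0.5 with them, and -0.386 over the MHC, and the 5hmC difference of class II was -0.411 points.

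In class III, the complement gene C2 shares 19 promoter CpGs with EHMT2, a histone H3 lysine methyltransferase gene, and these averaged 0.25% in DCBQ cells and 0.47% in control cells. The C2 body averaged 49.9% in DCBQ cells and 50.9% in control cells over 131 CpGs. Bodies of the other complement genes, with fewer CpGs, were higher, at 84.2% in DCBQ cells and 82.6% in control cells in CFB. In the same order, C4A stood at 82.9% and 84.3%, and C4B at 80.0% and 79.3%. C4A and C4B are nearly identical, so reads could fall to either. LTA, which encodes lymphotoxin alpha, had a promoter at 82.3% in DCBQ cells and 86.3% in control cells, while TNF and LTB had no window with at least 5 CpGs. Of the stress-induced HSP70 chaperone genes, HSPA1B stood at 0.66% in DCBQ cells and 0.46% in control cells and HSPA1L at 1.25% and 1.54%. The HSPA1A window averaged 40.7% ± 1.52 in DCBQ cells and 41.0% ± 0.67 in control cells over 15 CpGs. It overlaps the HSPA1L window and also the HSPA1L body, where 7 CpGs averaged 85.9% and 86.0% in the same order. This mean thus need not be the level at the HSPA1A start. The HSPA1A body was at 0.87% in DCBQ cells and 0.63% in control cells. HSPA1A and HSPA1B are near copies of each other as well, and their reads may have been shared.

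The windows with the highest 5mC over all columns were those of ZFP57, TRIM15, LTA, TRIM10 and SCAND3, at 89.1%, 87.8%, 84.3%, 84.2% and 81.4% 5mC. The windows of TRIM10 and TRIM15 overlap and may share CpGs. ZFP57 encodes a zinc finger protein that keeps imprints methylated. The lowest were IER3 at 0%, GPSM3 at 0.29%, C2 and EHMT2 at 0.36% each and RPP21 at 0.43%.

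No MHC promoter, gene body, 1 kb tile or single CpG passed an adjusted p of 0.05 in limma fits over the whole genome, for either mark. Of 66 MHC promoters, 0 were called for 5mC, against 0% of all 15403, and at an unadjusted p under 0.05 there were 4 (6.06%), against 6.65% of all. For gene bodies the unadjusted count was 8 of 67 (11.9%), against 8.59% of all, with 7 lower in DCBQ cells and 1 higher. With the replicate number as a block it was 4 of 67, against 1272 of all 16557. For tiles it was 29 of 324 (8.95%), against 6.2%, and for single CpGs that varied 225 of 4022 (5.59%), against 4.69%. For 5hmC the unadjusted counts were 3 of 42 promoters (7.14%, against 4.87% of all), 4 of 47 bodies (8.51%, against 5.36%), 13 of 249 tiles (5.22%, against 4.83%) and 143 of 3001 CpGs (4.77%, against 1.88%). The gap for single 5hmC CpGs depended on the fit. A limma fit without trend gave 134 of 3001, against 122966 of all 3153543. Leaving out CpGs mostly at a fraction of 0 or 1 gave 100 of 1765, against 84302 of all 1938529. Over the whole genome the adjusted call, which for single CpGs also needed 10 points, gave 0% for all units except 1 5hmC CpG outside the MHC (3.17e-05%). The shares lower in DCBQ cells were 48.5% of MHC promoters and 47.8% of MHC bodies for 5mC, against 59.6% and 69.6% over all genes, with median differences of 0.005 and 0.033 points in the MHC and -0.097 and -0.389 over all. Leaving out each column in turn gave MHC medians of -0.092 to 0.141 points for promoters and -0.324 to 0.127 for bodies, below 0 for bodies in 5 of 6 cases.

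The TRIM genes, most of them in the class I part, which encode ubiquitin ligases, supplied several of the smallest unadjusted p-values, none of which passed adjustment. The TRIM39 promoter had 0.76%, 1.32% and 0.50% 5mC in DCBQ cells and 2.00%, 1.72% and 2.62% in control cells over 20 CpGs. All DCBQ columns lay below all control columns, with a difference of -1.25 points (SE 0.32, limma adjusted p = 0.627). At the TRIM10 promoter the DCBQ columns were 86.22%, 85.16% and 91.19%, above the control columns at 81.67%, 77.21% and 84.01% (6.56 points, SE 2.26, limma adjusted p = 0.712). The body of the neighbouring TRIM15 had 52.68%, 54.03% and 51.36% in DCBQ cells and 56.92%, 56.03% and 56.83% in control cells over 37 CpGs (-3.90 points, SE 0.76, limma adjusted p = 0.493). TRIM31, also in this cluster, showed the difference in 5hmC, with 3.86%, 4.42% and 2.18% in DCBQ cells and 12.13%, 12.04% and 9.74% in control cells over 9 CpGs of its body (-7.82 points, SE 1.38, limma adjusted p = 0.697). Its 5mC over 15 body CpGs averaged 90.6% in DCBQ cells and 87.0% in control cells, with groups that overlapped. The direction was thus not shared by the TRIM genes: of 5 TRIM promoters tested for 5mC, 2 were lower and 3 higher in DCBQ cells, with a median difference of 0.33 points against -0.10 over all genes. Among the 3 higher, the windows of TRIM10 and TRIM15 overlap, so their differences may not be separate.

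MICA and MICB showed opposite signs in different places. The MICA body had 21.31%, 19.69% and 13.21% 5mC in DCBQ cells and 24.85%, 22.93% and 29.97% in control cells over 11 CpGs (-7.85 points, SE 2.67, limma adjusted p = 0.572). At the MICB promoter 5mC was 66.92%, 63.67% and 63.03% in DCBQ cells and 59.68%, 62.42% and 57.02% in control cells (4.83 points, SE 1.73, limma adjusted p = 0.716). The same 6 CpGs had 2.42%, 4.76% and 2.29% 5hmC in DCBQ cells and 9.91%, 5.20% and 9.81% in control cells (-5.15 points, SE 1.71, limma adjusted p = 0.957). Neither mark overlapped between groups at this promoter.

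Among tested class III promoters and bodies the largest 5mC difference was at MSH5, which encodes a meiotic recombination protein of the MutS family. Its 5 body CpGs had 70.68%, 71.16% and 67.72% in DCBQ cells and 85.00%, 77.32% and 84.46% in control cells (-12.41 points, SE 2.25, limma adjusted p = 0.455). The HSPA1B body was at 0.77%, 0% and 0% in DCBQ cells and 2.10%, 2.00% and 1.43% in control cells (-1.59 points, SE 0.34, limma adjusted p = 0.495), all close to 0. The LTA promoter had 79.06%, 83.34% and 84.45% in DCBQ cells and 86.36%, 84.75% and 87.71% in control cells (-3.99 points, SE 1.63, limma adjusted p = 0.747). The body of VWA7, a gene for a von Willebrand factor A domain protein, held 5.20%, 6.02% and 5.39% 5hmC in DCBQ cells and 0.51%, 3.07% and 3.52% in control cells (3.17 points, SE 0.85, limma adjusted p = 0.906).

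Other genes chosen by the smallest p had these differences. For 5mC promoters, HLA-DQA2 differed by -7.64 points and ZBTB12 by -0.73, and ATAT1, a tubulin acetyltransferase gene, by 8.96 and the olfactory receptor OR2H1 by 11.80, all with overlapping columns. For 5mC bodies, ABCF1, which encodes a translation factor of the ABC family, was higher with 72.72%, 75.48% and 76.75% in DCBQ cells and 70.44%, 71.49% and 70.79% in control cells (4.07 points, SE 1.08, limma adjusted p = 0.541). HLA-DRB1 differed by 2.58 points, OR11A1 by 5.92 and TRIM31 by 3.56, with columns that overlapped. The OR11A1 body shares CpGs with the OR2H1 window, so their differences are not separate. The other bodies at an unadjusted p under 0.05, named after their values were seen, were COL11A2, a cartilage collagen gene (-6.70 points), VWA7 (-3.27) and TRIM27 (-1.34).

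For 5hmC, the CUTA promoter had the smallest p in the MHC, with 1.96%, 3.10% and 2.08% in DCBQ cells and 0% in all 3 control columns over 6 CpGs (2.38 points, SE 0.34, limma adjusted p = 0.538). CUTA encodes a protein linked to copper tolerance by its bacterial relatives. The body of MUC22, an epithelial mucin gene, had 3.08%, 2.18% and 5.33% in DCBQ cells and 6.96%, 8.33% and 14.36% in control cells over 5 CpGs (-6.36 points, SE 2.08, limma adjusted p = 0.932). Differences of 5hmC at promoter windows, which for DAXX and TRIM27 sit at a gene end and may not be the promoter, were -0.45 points at DAXX (a histone chaperone gene), -0.76 at ABCF1, -2.65 at RNF39, 1.26 at TRIM39, 0.47 at TRIM27 and 1.03 at HLA-DPA1. In bodies they were -1.50 points at WHR1, -4.86 at GNL1, 1.38 at EGFL8, 5.41 at GABBR1 and 1.41 at C2. Among these 11 units only RNF39 had columns that did not overlap.

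**Figure D5:**
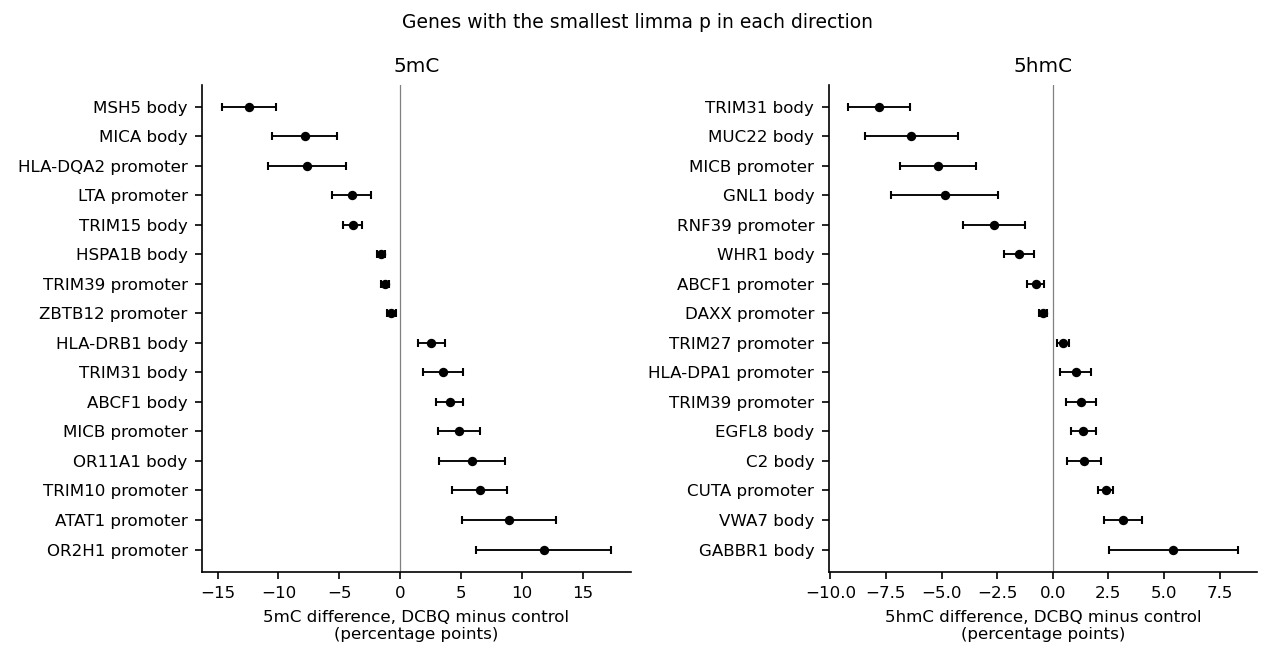
Difference of 5mC (left) and 5hmC (right) in percentage points, DCBQ minus control, with the limma SE as bars, for the 4 lowest p-values in each direction among MHC promoters and among MHC bodies. MSH5 at -12.41 points and OR2H1 at 11.80 span the 5mC panel, and TRIM31 at -7.82 and GABBR1 at 5.41 the 5hmC panel. None passed an adjusted p of 0.05, and OR2H1 and OR11A1 share CpGs.

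Tiles of 1 kb gave a finer position to some of these. The 5mC tiles with the smallest p were lower at chr6:31829001-31830000 in HSPA1B (-1.59 points, 10 CpGs), chr6:32097001-32098000 in TNXB, a tenascin gene (-8.96, 5 CpGs), and chr6:30327001-30328000 in TRIM39 and the noncoding HCG18 (-1.25, 29 CpGs). They were higher at chr6:30582001-30583000 in ABCF1 (12.27 points, 5 CpGs) and at chr6:30117001-30118000 outside annotated genes (6.77, 5 CpGs). For 5hmC they were lower at chr6:30111001-30112000 in TRIM31 (-7.82 points, 9 CpGs), chr6:33405001-33406000 in KIFC1, a kinesin gene (-3.78, 8 CpGs), and chr6:32091001-32092000 in TNXB (-5.58, 5 CpGs). They were higher at chr6:30102001-30103000, where the CpGs lie just beyond TRIM31 (2.15 points, 23 CpGs), chr6:30556001-30557000 between GNL1 and PRR3 (0.91, 23 CpGs) and chr6:30484001-30485000 outside annotated genes (8.82, 8 CpGs). The tile beyond TRIM31 had 5hmC levels of 3.27%, 3.39% and 3.66% in DCBQ cells and 0%, 1.99% and 1.90% in control cells.

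The best covered tiles, ranked by number of CpGs after the data were seen, lay mostly outside protein-coding promoters. The tile with most CpGs, chr6:32595001-32596000 outside annotated genes, averaged 66.6% 5mC in DCBQ cells and 68.0% in control cells over 79 CpGs. The tile in the class I pseudogene HLA-H (50 CpGs) averaged 1.09% and 1.12%, the one in HLA-G (47 CpGs) 91.5% and 90.4%, and the one at HLA-K and HCG4B (43 CpGs) 52.1% and 51.5%, each with DCBQ cells before control cells. Related class I sequences thus stood at low, intermediate and high levels in the same cells.

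Genes of the same pathways outside the MHC gave no adjusted call either. Of 14 class I pathway genes, 11 were tested at promoter windows for 5mC, with 6 lower and 5 higher in DCBQ cells and 0 at an unadjusted p under 0.05, and 11 at bodies, with 7 lower and 4 higher. The body of ERAP2, which trims peptides in the endoplasmic reticulum, had 78.25%, 73.81% and 76.76% in DCBQ cells and 80.32%, 79.10% and 80.23% in control cells (-3.61 points, SE 1.18, limma adjusted p = 0.566). Of 8 class II pathway genes all were tested, with 3 promoters lower and 5 higher in 5mC. The promoter of CD74, the invariant chain that guards the class II groove, had 20.54%, 23.26% and 22.91% 5mC in DCBQ cells and 29.15%, 26.27% and 26.02% in control cells (-4.91 points, SE 1.14, limma adjusted p = 0.598). Its 5hmC was 3.66%, 4.10% and 3.33% in DCBQ cells and 2.19%, 1.14% and 1.89% in control cells (1.96 points, SE 0.55, limma adjusted p = 0.957), and the groups overlapped in neither mark.

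The remaining gene groups of the MHC held few tested members and no adjusted call. Of 13 chromatin and transcription regulators, 6 were tested at promoter windows for 5mC, with 2 lower and 4 higher in DCBQ cells, and 5 at bodies, with 4 lower and 1 higher. Their promoter levels had a median of 0.63%, from 0.36% at EHMT2 to 89.1% at ZFP57. Of 10 genes listed under the epithelial surface and cornified layer, 2 were tested at promoters, CCHCR1 and GABBR1, both lower without passing the test, and GABBR1 encodes a GABA-B receptor subunit. Of the 10, 5 were tested at bodies, with 2 lower and 3 higher. Of 10 genes listed as butyrophilin-like and immunoglobulin-like, 1 was tested at its promoter, LY6G5C, a gene of the Ly6 family, at 2.12% in DCBQ cells and 2.55% in control cells. Of 31 extended class I genes on the list, some of which lie below the lower bound of the region, 12 were tested at promoters, with 8 lower and 4 higher (median difference -0.14 points). Of 19 extended class II genes, 15 were tested at promoters, with 6 lower and 9 higher (median difference 0.09 points, against -0.10 over all genes).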

How the data were processed

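RRBS and oxidative RRBS libraries of DCBQ and control cells were made with the Ovation and TrueMethyl kits, per the labels' protocols. Per the submitters' processing notes, cutadapt, Trim Galore and BSMAP 2.90 were used with hg38. Nothing is stated in the sources used here on their settings, or on how both libraries gave 5mC and 5hmC. The deposited values are fractions per CpG with no depth, and per the file headers strands were merged at a minimum of 5 reads. Columns name a group and number but not a library, and 0 columns were left unmapped. Here, any level below 0 was set to 0. Levels were averaged without weights over promoter windows, gene bodies (the rest of a gene), 1 kb tiles and regions, with RefSeq genes. Units needed 5 CpGs. limma 3.58.1 (R 4.3.3, eBayes with trend) was fitted over all units of the genome with Benjamini-Hochberg adjustment, and region means were compared by two-sided exact permutation tests. Genes named are the 4 with the smallest p in each direction per mark and unit, the 3 such tiles, the 5 highest and lowest promoters and fixed immune genes; some of these are not reported here. The scripts were tested on simulated data. The members and lists were chosen with earlier results of these data known. Alternatives are in the closing section.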

Additional observations from a re-analysis of the deposited data

How the results depend on the processing

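Among 44 differences of named genes and tiles, 0 changed sign and 0 passed an adjusted p of 0.05 over 461 alternative fits. The lowest adjusted p of a named gene in these limma fits was 0.0634. These units were chosen by their smallest p in the same columns, so a change of sign was unlikely from the start. Their stable signs are therefore no test of the differences. Several region means turned sign. With only CpGs in both tables, the 5mC difference of class II was 0.059 points, and with each 1 kb tile counted once, extended class II was -0.167 for 5mC and class III and class II were 0.215 and 0.398 for 5hmC; the cause was not tested. Leaving out each column gave -0.459 to 0.053 for class I 5mC, -0.271 to 0.238 for extended class II 5mC, -0.195 to 0.13 for MHC 5mC against the rest of chromosome 6 and -0.082 to 0.201 for 5hmC, -0.1 to 0.304 for MHC 5hmC, -0.115 to 0.412 for extended class I 5hmC and -0.376 to 0.357 for class III 5hmC. It gave 3 to 7 of 66 MHC promoters with an unadjusted p under 0.05 for 5mC, against 941 to 1014 of all 15403. For 5hmC it gave 2 to 6 of 42 promoters (673 to 781 of all 15291) and 4 to 7 of 47 bodies (771 to 930 of 16419). With at least 10 CpGs, which leaves fewer units, the counts were 19 of 148 tiles for 5mC (6819 of all 102769). For 5hmC they were then 1 of 28 promoters (688 of all 14086), 0 of 24 bodies (809 of 15085) and 6 of 119 tiles (4800 of 98264). With a replicate block they were 4 of 67 bodies for 5mC (1272 of all 16557) and 90 of 3001 single CpGs for 5hmC (38938 of 3153543). Deviations of same-numbered columns correlated at -0.0212 to 0.0031, so the numbers were not taken to pair samples. Depth was unknown, so its limit could not be computed.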
